A study of Mus musculus with 4 samples.

Results

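Interleukin-5 and interleukin-13, encoded by Il5 and Il13, are type 2 cytokines, and a small set of cells in a sort of regulatory T (Treg) cells from mouse visceral fat carried their transcripts. The cells described here, called cytokine cells below, held 1 or more UMIs of Il5 and Il13 together, where a UMI (unique molecular identifier) marks 1 captured RNA molecule. They also had 500 or more genes, under 10% mitochondrial counts and no UMI of Cd79a, Lyz2 or Cd8a, which mark B cells, myeloid cells and CD8 T cells. One of the condition's antibody tags (hashtags) had to make up 90% or more of at least 10 hashtag counts. Of 20492 barcodes in both matrices 16895 passed these filters without the cytokine criterion, and 425 of those were cytokine cells. The cells were selected on their Il5 and Il13 counts, so every contrast of cytokine cells with other cells is a description and carries no test. At the edges of the rule, 261 cells had a single cytokine UMI. The lowest hashtag share among cytokine cells was 90.4% in the Srebf2 pool and 90.6% in the diet pool, and the nearest barcodes outside stood at 89.6% and 89.7%.

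The cells came from male mice and were sorted as live CD3+ CD4+ Foxp3+ cells before mixing. In the Srebf2 pool, the KO group was 4 Foxp3YFP-cre Srebf2flox/flox mice and the WT group 4 Foxp3YFP-cre Srebf2WT/WT mice, all 25 weeks old. Both groups carry the Cre recombinase, which is driven by Foxp3 and so deletes in Foxp3-expressing cells. In the diet pool, the HFD group was 5 Foxp3thy1.1 PpargTdt mice on a high-fat diet for 22 weeks, and the NCD group 5 mice of the same genotype on normal chow, all aged 23 to 27 weeks. Mice of a group were pooled under 1 hashtag, so each condition is a single sample, and no p-value can be given. The 95% intervals below are exact (Clopper-Pearson for shares, Poisson for levels, binomial split for ratios) and cover counting error only.

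Interleukin-5 is best known for supporting eosinophils, and interleukin-13 for acting on macrophages, epithelium and stroma. In fat, both are known mainly from group 2 innate lymphoid cells (ILC2), which lack an antigen receptor. ILC2 and most Treg cells of visceral fat carry ST2, the receptor for interleukin-33 encoded by Il1rl1, and both use the transcription factor GATA3. Il5 and Il13 both lie in the type 2 cytokine locus. In GRCm38.p6 Il13 lies at chr11:53631323-53634702 and Il5 at chr11:53720794-53725103, with 86091 bases between them. The 250 bases before each start site are shown because these are the transcripts that chose the cells. They are RefSeq windows of GRCm38.p6, at chr11:53720544-53720793 on the plus strand for Il5 and chr11:53634703-53634952 on the minus strand for Il13. Capitals mark GATA and GGAAA on either strand (TATC and TTTCC where the match is on the other strand).
Il5: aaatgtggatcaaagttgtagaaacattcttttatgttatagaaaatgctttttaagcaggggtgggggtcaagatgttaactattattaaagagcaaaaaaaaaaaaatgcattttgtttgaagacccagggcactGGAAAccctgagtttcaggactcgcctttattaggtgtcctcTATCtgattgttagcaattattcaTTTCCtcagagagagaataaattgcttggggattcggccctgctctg
Il13: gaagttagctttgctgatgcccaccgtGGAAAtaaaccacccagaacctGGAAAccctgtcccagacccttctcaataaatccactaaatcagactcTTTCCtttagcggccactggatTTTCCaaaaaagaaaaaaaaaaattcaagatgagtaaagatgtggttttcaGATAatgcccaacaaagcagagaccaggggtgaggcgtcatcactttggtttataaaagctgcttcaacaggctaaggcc
GATA, the core of sites that GATA factors bind, occurred once in each window, from base -71 to -68 before the Il5 start and from -80 to -77 before the Il13 start. It is in 53.6% of 32851 promoter windows of this length, so it is common. GGAAA, the core of NFAT sites, occurred 2 times before Il5 and 4 times before Il13 and is in 55.6% of all windows. TGANTCA, the core of AP-1 sites, occurred in neither window and is in 6.75% of all. None of these matches overlapped.

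Cytokine cells were 104 of 3956 KO cells (2.63%, 2.15 to 3.18), 140 of 3490 WT cells (4.01%, 3.38 to 4.72), 18 of 4511 HFD cells (0.399%, 0.237 to 0.630) and 163 of 4938 NCD cells (3.30%, 2.82 to 3.84). Il5 was found more often than Il13. It was detected in 2.07% of KO, 3.12% of WT, 0.266% of HFD and 2.55% of NCD cells, and Il13 in 0.809% of KO, 1.29% of WT, 0.133% of HFD and 0.911% of NCD cells. Free RNA can give a UMI to a cell that does not make the transcript. Among B cell-like barcodes of both pools, which should lack both cytokines, 1 of 259 had such a UMI (0.386%, 0.00977 to 2.13), at a median of 3868 UMIs per barcode. That barcode was 1 of 32 KO ones. In the diet pool 0 of 184 such barcodes had a cytokine UMI, which allows a share of up to 1.63%. The share of all HFD cells lies within these limits, so it could not be told from background by its size. The KO, WT and NCD intervals lie above the limit of 2.13% from both pools. Single conditions set wider exact limits, 16.2% in KO, 8.22% in WT (0 of 43) and 3.13% in NCD (0 of 116). Against these the KO and WT shares could not be told from background either, and the NCD interval reaches below its limit. Of the 18 HFD cells, 14 had a single cytokine UMI and none had 5 or more, which allows a share of up to 0.0665% at 5 or more (3 counts of the total; 0.0817% by the exact interval).

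Cytokine cells were deeper than other cells, with medians of 5775.5 UMIs against 3606 in KO, 6185.5 against 3533 in WT, 4132.5 against 3191 in HFD and 6738 against 3946 in NCD. A deep cell has more chances to show a rare transcript, so the shares were also counted after thinning each cell to 2000 UMIs, leaving out 311 KO, 307 WT, 711 HFD and 286 NCD cells below that depth. The shares were then 1.40% in KO (1.04 to 1.84) and 1.89% in WT (1.44 to 2.42), whose intervals overlap, against intervals that did not overlap before thinning. They were 0.132% in HFD (0.0427 to 0.307) and 1.55% in NCD (1.21 to 1.95), which remain apart. At 5 or more cytokine UMIs the KO share was 0.506% (20 cells) and the WT share 0.544% (19 cells), and HFD had 0 cells against 19 in NCD (0.385%). The KO and WT intervals at 5 or more are wide and overlap (0.309 to 0.780 and 0.328 to 0.849). They also overlap at 2 or more (0.681 to 1.32 in KO and 1.14 to 1.98 in WT). Whether the distance between KO and WT varies with the number of cytokine UMIs cannot be told from these counts. The HFD share lay below that of NCD at each count.

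Nearly all cytokine cells outside HFD carried ST2. An Il1rl1 UMI was present in 94.2% of KO, 96.4% of WT, 61.1% of HFD and 97.5% of NCD cytokine cells, against 57.7%, 70.0%, 17.4% and 77.4% of the other cells in the same order. Among cells with an Il1rl1 UMI, 4.22% of KO (3.44 to 5.12), 5.45% of WT (4.59 to 6.41), 1.39% of HFD (0.694 to 2.47) and 4.12% of NCD cells (3.52 to 4.80) were cytokine cells. Among cells without one the shares were 0.367%, 0.495%, 0.188% and 0.369%, all at or near the B cell-like level. Within ST2-bearing cells the KO and WT intervals overlap and the HFD interval still lies below that of NCD. Thinned to 2000 UMIs, the shares of ST2-bearing cells were 2.19% in KO, 2.64% in WT, 0.543% in HFD (3 cells, 0.112 to 1.58) and 1.84% in NCD (1.40 to 2.38), and the HFD and NCD intervals then overlap.

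**Figure D1:**
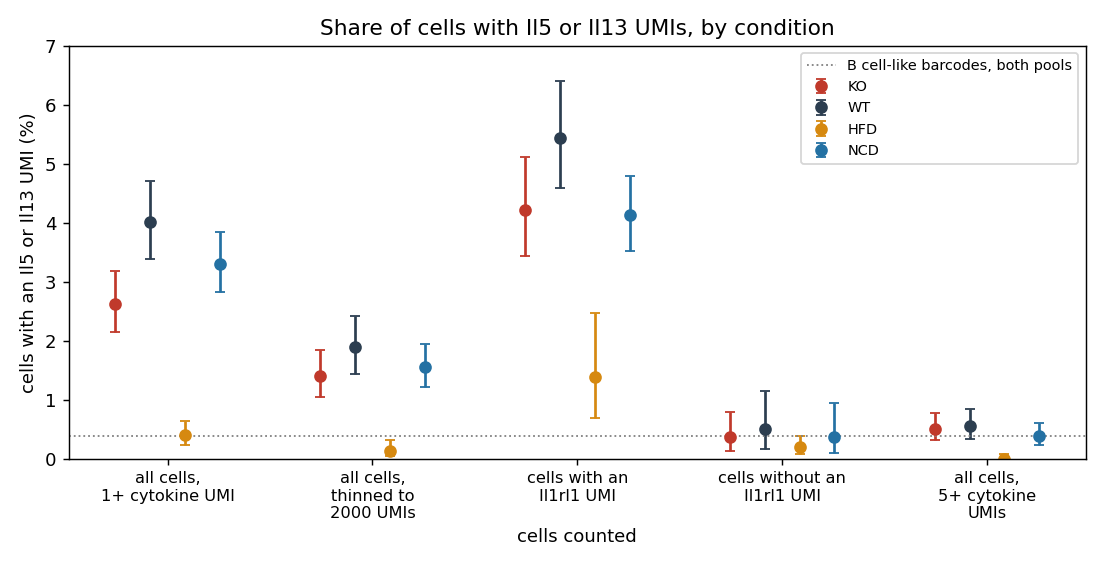
Share of cells with an Il5 or Il13 UMI (vertical axis, percent of the cells counted) in KO (red), WT (black), HFD (orange) and NCD (blue), for 5 ways of counting. Points are shares, bars exact 95% binomial intervals, and the dotted line is the share in B cell-like barcodes. KO lies below WT in all cells (2.63% and 4.01%) and the 2 are closer after thinning (1.40% and 1.89%), while HFD lies lowest in each set.

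The cytokine transcripts were concentrated in few cells. Of the 425 cells, 261 had 1 cytokine UMI, 106 had 2 to 4 and 58 had 5 or more. The highest cell held 48 cytokine UMIs in KO, 86 in WT, 3 in HFD and 117 in NCD, and the 10 highest cells of a condition held 56.4% of its cytokine UMIs in KO, 55.7% in WT, 68.0% in HFD and 52.7% in NCD. Il5 alone was found in 297 cells, Il13 alone in 96 and both in 32. An Il13 UMI was present in 12.2% of Il5-positive KO cells (10 of 82), 12.8% of WT (14 of 109) and 6.35% of NCD (8 of 126), against 0.568%, 0.917% and 0.769% of Il5-negative cells. In HFD it was in 0 of 12 Il5-positive cells, which allows a share of up to 26.5% by its interval. Il13 was thus found more often in cells with Il5 than in cells without, in each condition with enough cells, and most cytokine cells still showed 1 of the 2 at this depth. Il5-positive cells were also deeper. Their medians were 6397, 6443 and 6717.5 UMIs in KO, WT and NCD, against 3640.5, 3589.5 and 3989 in all cells. Co-detection was not counted at equal depth.

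Nearly all cytokine cells carried transcripts of the T cell antigen receptor complex. Of the 425 cells, 424 had a UMI of Cd3d, Cd3e, Cd3g, Trac, Trbc1 or Trbc2, and 418 had a variable segment of the receptor's alpha or beta chain. Other cells, which were shallower, were much alike, with such a UMI in 16286 of 16470 and a variable segment in 15740 (95.6%, against 98.4% of cytokine cells). Cd3e, a signalling chain of that complex, was detected in 98.1% of KO, 96.4% of WT, 94.4% of HFD and 97.5% of NCD cytokine cells, against 92.7%, 92.1%, 91.8% and 94.0% of other cells. Cd4, the co-receptor used in the sort, was detected in 76.9%, 58.6%, 50% and 63.8% of cytokine cells and in 48.9%, 43.9%, 49.9% and 50.1% of other cells. Thinned to 2000 UMIs, Cd4 was in 41.6% of KO cytokine cells against 31.0% of other cells, but in 25.5% against 26.7% in WT and 30.7% against 29.2% in NCD. The 16 genes of the T cell list were slightly lower in summed level than in other cells, with a median log2 ratio of -0.42 over 16 genes in KO, -0.24 over 15 in WT and -0.19 over 14 in NCD, beside a median of 0.02 over all genes in WT and in NCD; 1 gene, in KO, was 2-fold lower, as were 2.61% of all genes there.

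Foxp3, the transcription factor that defines Treg cells, was detected in 65.4% of KO (55.4 to 74.4), 70.0% of WT (61.7 to 77.4), 50% of HFD and 66.9% of NCD cytokine cells, above the 56.5%, 54.8%, 40.5% and 53.3% of other cells. Equal depth turned the order of the shares round. Thinned to 2000 UMIs, 32.7% of KO, 33.6% of WT and 26.4% of NCD cytokine cells had a Foxp3 UMI, against 38.4%, 37.0% and 33.9% of other cells, and the intervals of the cytokine cells include the other cells' share in KO and WT but end just below it in NCD (19.8 to 33.8). The summed Foxp3 level was 193 CPM (counts per 1e+06 of the summed total) in KO cytokine cells against 266 CPM in other KO cells, 208 against 257 CPM in WT and 169 against 215 CPM in NCD. Against other cells weighted to the same depth, the log2 ratios of Foxp3 were -0.13 in KO, 0.05 in WT and -0.18 in NCD, near equal levels. Of the 141 cytokine cells without a Foxp3 UMI, 139 had a UMI of Il2ra, Ctla4 or Ikzf2, further genes that Treg cells express. Most other cells without a Foxp3 UMI had one too (7682 of 8092), at lower depth. Klrg1, a receptor of differentiated fat Treg cells, was in 94.4% of KO, 97.6% of WT and 100% of NCD cytokine cells without a Foxp3 UMI, and in 95.6%, 100% and 99.1% of those with one. Il2ra, the high-affinity interleukin-2 receptor chain, was higher, at 970 CPM against 533 CPM in KO, 1027 against 611 CPM in WT and 1108 against 628 CPM in NCD. Ikzf2, which encodes the Treg transcription factor Helios, was lower, at 630 against 835 CPM in KO, 561 against 847 CPM in WT and 606 against 775 CPM in NCD. Ctla4 at 2000 UMIs was in 62.4% of KO, 80.3% of WT and 72.4% of NCD cytokine cells, against 66.3%, 72.1% and 61.3%. Of 9 Treg list genes at 50 CPM or more, none was 2-fold higher in any of the 3 conditions, and 1 in KO, 1 in WT and 2 in NCD were 2-fold lower. Of all genes at that level, 2.53% were 2-fold higher in KO, 1.79% in WT and 2.1% in NCD, and 2.61%, 1.45% and 1.32% were 2-fold lower.

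Markers of ILC2 were mixed. Ptgdr2, the prostaglandin D2 receptor by which ILC2 are often identified, had no UMI in any cytokine cell. It was in only 1 KO, 1 WT, 0 HFD and 0 NCD other cells, so its absence says little about identity. Kit had 0, 2, 3 and 6 UMIs in KO, WT, HFD and NCD cytokine cells, Il17rb had 1, 3, 2 and 0, and Arg1 had 6, 3, 0 and 2. Kit was in 0%, 1.43%, 16.7% and 2.45% of these cells against 0.571%, 0.567%, 0.556% and 2.32% of other cells. Il17rb was in 0.962%, 2.14%, 5.56% and 0% against 0.571%, 0.597%, 0.378% and 0.251%. Arg1 was in 2.88%, 0.714%, 0% and 1.23% against 0.260%, 0.299%, 0% and 0.272%. Any of Kit, Ptgdr2, Il17rb, Hpgd or Arg1 was found in 31 of the 425 cells and in 473 of 16470 other cells, which were shallower. Every one of those 31 also had a CD3 gene, as did all but 9 of the 473. Calca, also on the ILC2 list, was in 11.5% of KO, 6.43% of WT, 11.1% of HFD and 11.7% of NCD cytokine cells. It was in 3.35%, 3.19%, 0.734% and 4.25% of other cells. At 2000 UMIs Calca was in 6.93% against 2.57% in KO, 4.38% against 2.50% in WT and 6.75% against 3.16% in NCD. Pcsk1, a protease that cuts prohormones, named here after its values were seen, was more frequent, in 32.7% of KO, 30% of WT, 16.7% of HFD and 48.5% of NCD cytokine cells, against 8.0%, 9.1%, 1.6% and 13.9% of other cells. Nmur1, the receptor for neuromedin U on ILC2, was in 22.1%, 27.1%, 16.7% and 28.2% of cytokine cells and 8.3%, 10.6%, 1.1% and 13.7% of other cells. At 2000 UMIs Nmur1 was in 9.90% (4.85 to 17.5) against 4.80% in KO, 8.03% (4.08 to 13.9) against 5.55% in WT and 13.5% (8.66 to 19.7) against 6.68% in NCD, and the WT interval includes the other cells' share while the KO interval begins just above it. Pcsk1 was then in 11.9% against 4.80% in KO, 10.9% against 5.42% in WT and 23.9% against 7.35% in NCD. The 21 genes of the ILC2 list summed to 5364 CPM in KO cytokine cells against 4344 CPM in other KO cells, 5248 against 4948 CPM in WT, 4229 against 2059 CPM in HFD and 5834 against 5575 CPM in NCD, and 4 to 8 of the 21 were at 0. In KO cytokine cells Klrg1 (1373 CPM), Il1rl1 (950 CPM) and Gata3 (459 CPM), which fat Treg cells also express, made up much of that sum. Of the list's genes at 50 CPM or more, 2 of 10 were 2-fold higher in KO, 0 of 9 in WT and 1 of 10 in NCD. The shares of all genes 2-fold higher were 2.53%, 1.79% and 2.1%. Of 8 ILC2 list genes at 50 CPM in KO, WT and NCD, 6 lay above equal levels in all 3 and 2 below. Of 14 T cell list genes 11 lay below and 0 above, and of 9 Treg list genes 4 lay below and 3 above. Over all 3095 genes 1043 lay above and 1029 below. The cells thus carried T cell and Treg transcripts beside some genes also known from ILC2. The Treg label rests on the sort and on detection of Foxp3, Il2ra, Ctla4 and Ikzf2, of which Foxp3 and Ikzf2 had lower summed levels than in other cells.

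**Figure D2:**
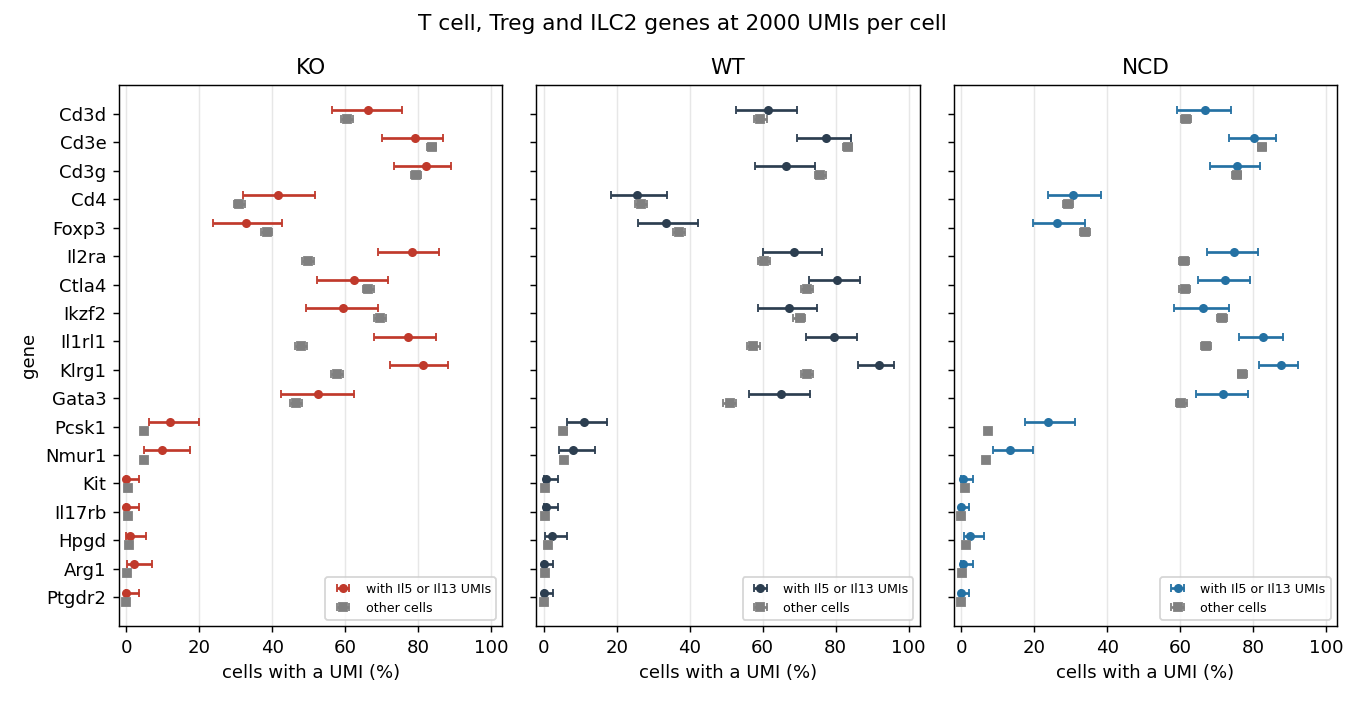
Share of cells with a UMI of each gene (horizontal axis, percent) after thinning to 2000 UMIs, in cytokine cells (coloured circles) and other cells (grey squares) of KO, WT and NCD, with exact 95% binomial intervals. Cd3e lies at 79.2%, 77.4% and 80.4% in cytokine cells of KO, WT and NCD against 83.8%, 83.3% and 82.5% in other cells, Il1rl1 and Klrg1 lie higher in cytokine cells, and Kit, Il17rb, Hpgd, Arg1 and Ptgdr2 lie near 0.

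Markers of other cell types summed to low levels in cytokine cells, though not always below other cells. The B cell list summed to 6.97 to 19.3 CPM over the 4 conditions (11.7 to 15.6 CPM in other cells) with 4 to 6 of 7 genes at 0, though Cd79a was set to 0 by the rule. The myeloid list summed to 77.3 CPM in KO, 83.2 CPM in WT, 250.5 CPM in HFD and 34.1 CPM in NCD, against 149, 151, 206 and 159 CPM in other cells, with 3 to 7 of 8 genes at 0 and Lyz2 at 0 by the rule. The gamma delta or NKT list had at most 2 UMIs in any condition, the mast cell, basophil or eosinophil list at most 6, and the CD8 or NK list 1 to 61. The CD8 or NK list summed to 13.9 CPM against 25.4 CPM in KO, 21.5 against 26.2 CPM in WT, 9.63 against 25.6 CPM in HFD and 47.2 against 36.1 CPM in NCD. The part of such cells in the results was not tested. The stromal or adipocyte list summed to 19.3 to 38.2 CPM, against 26.0 to 153 CPM in other cells. Between the pools 135 barcodes were shared, and no barcode was a cytokine cell in both.

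Penk and Tnfrsf9 accompanied the cytokines. Penk encodes the precursor of the enkephalin opioid peptides and Tnfrsf9 the co-stimulatory receptor 4-1BB, which is induced on activated T cells. Tnfrsf9 was broadly shared, with a UMI in 55 of 104 KO, 59 of 140 WT, 12 of 18 HFD and 72 of 163 NCD cytokine cells (52.9%, 42.1%, 66.7% and 44.2%, against 23.8%, 22.5%, 26.7% and 17.4% of other cells). Its summed level was 404 CPM in KO cytokine cells against 155 CPM in other cells (log2 ratio 1.39, 1.21 to 1.55), 294 against 133 CPM in WT (1.14, 0.96 to 1.32) and 213 against 75.7 CPM in NCD (1.49, 1.30 to 1.68). Against other cells weighted to the same depth the log2 ratios were 1.30, 0.92 and 1.11. Tnfrsf9 was thus higher in all 3 conditions, below 2-fold in WT once depth was matched.

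Penk was carried by few cells. It was detected in 17 KO, 11 WT, 4 HFD and 20 NCD cytokine cells (16.3%, 7.9%, 22.2% and 12.3%), against 5.1%, 2.6%, 8.3% and 3.8% of other cells. Its level was 293 CPM in KO cytokine cells against 50.3 CPM in other cells, 50.9 against 17.5 CPM in WT, and 68.9 against 27.3 CPM in NCD, giving log2 ratios of 2.54 (2.32 to 2.75), 1.55 (1.08 to 1.98) and 1.34 (1.00 to 1.66). One KO cell held 120 of the 231 Penk UMIs, and one NCD cell held 30 of 89. Leaving the highest cell of each set out gave 1.58 in KO, 1.30 in WT and 0.83 in NCD. In HFD, 1 cell held 114 of the 178 Penk UMIs. At matched depth the log2 ratios were 2.84 in KO, 0.90 in WT and 0.69 in NCD, below 2-fold in the last 2. Thinned to 2000 UMIs, Penk was in 12.9% of KO (7.04 to 21.0), 6.57% of WT (3.05 to 12.1) and 4.91% of NCD cytokine cells (2.14 to 9.44), against 3.58%, 1.94% and 2.29% of other cells. Penk was thus beyond 2-fold in KO in each of these comparisons, while its ratio in WT and NCD depended on depth, and in KO and NCD its size rested in part on single cells.

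By the rule of size (2-fold, with 50 CPM or more in the higher set) 89 of 3520 genes were higher in KO cytokine cells than in other KO cells (2.53%) and 92 lower (2.61%). In WT 63 of 3512 were higher (1.79%) and 51 lower (1.45%), and in NCD 70 of 3333 were higher (2.1%) and 44 lower (1.32%). Of 3095 genes measured at this level in all 3 conditions, 17 were 2-fold higher in each (0.549%) and 17 2-fold lower in each (0.549%). The HFD cytokine cells held 103813 UMIs in all, too few for ratios, against 788752 in KO, 1021149 in WT and 1291194 in NCD.

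The gene farthest above other cells was Cxcl3, a chemokine that attracts neutrophils. It stood at 691 CPM in KO cytokine cells against 85.0 CPM in other KO cells (log2 ratio 3.02), 584 against 80.8 CPM in WT (2.85) and 345 against 33.3 CPM in NCD (3.37), and 35.6%, 28.6% and 28.8% of KO, WT and NCD cytokine cells had a UMI against 5.6%, 7.1% and 3.8% of other cells. At matched depth its log2 ratio was still 1.90, 1.96 and 2.37, the highest among the 12 genes farthest above in WT and NCD. Its relative Cxcl2, named here after its values were seen, was more abundant, at 4630 CPM against 1508 CPM in KO (1.62), 4692 against 2380 CPM in WT (0.98) and 3653 against 1585 CPM in NCD (1.21). Irf8, a transcription factor best known from myeloid cells and also induced by T cell activation, had log2 ratios of 1.61, 2.14 and 2.38 in KO, WT and NCD. Mt1, which encodes the metal-binding protein metallothionein, had 2.49, 1.49 and 2.71.

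Il10, the anti-inflammatory cytokine of Treg cells, was higher with the type 2 cytokines, at 246 CPM in KO cytokine cells against 109 CPM in other cells (log2 ratio 1.17), 202 against 91.4 CPM in WT (1.15) and 243 against 72.9 CPM in NCD (1.74). It was detected in 36.5%, 36.4% and 40.5% of cytokine cells and 14.9%, 14.5% and 14.8% of other cells. At matched depth the log2 ratios were 0.70, 0.98 and 1.55. The other genes taken by the naming rule were Tox2, of the TOX family of nuclear factors (1.84, 1.23 and 1.39 in KO, WT and NCD), Stx11, a syntaxin of vesicle fusion (1.66, 1.42 and 1.31), Igfbp7 (1.59, 1.53 and 1.45) and Tmtc2 (1.45, 1.31 and 1.35). Igfbp7 was at 0.55, 0.38 and 1.11 at matched depth. Il4, a further type 2 cytokine, was nearly undetected, with 1, 0, 0 and 2 UMIs in KO, WT, HFD and NCD cytokine cells, and Il9 and Il3 had none.

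Mcm3, Lig1 and Stmn1, genes of DNA replication and of microtubules in dividing cells, were also among the 12 farthest above, and their ratios moved with depth. Their log2 ratios were 1.25, 1.70 and 1.30 for Mcm3, 1.15, 1.55 and 1.55 for Lig1, and 1.17, 2.65 and 2.61 for Stmn1 in KO, WT and NCD. Against other cells of the same depth they were -0.16, 0.04 and 0.46 for Mcm3, -0.08, 0.37 and 0.73 for Lig1, and -1.03, 0.07 and 0.77 for Stmn1. Of the proliferation list, 2 of 6 genes were 2-fold higher in KO, 6 of 10 in WT and 6 of 10 in NCD. The shares of all genes 2-fold higher were 2.53%, 1.79% and 2.1%. The list's medians were 0.27, 1.77 and 1.81, and -0.71, -0.12 and 0.47 at matched depth. Mki67, a marker of cycling cells, was detected in 10.6% of KO, 15.7% of WT and 16.6% of NCD cytokine cells, against 4.8%, 3.6% and 4.9% of other cells. At 2000 UMIs Stmn1 was in 8.91% of KO (4.16 to 16.2), 11.7% of WT (6.82 to 18.3) and 11.7% of NCD cytokine cells (7.17 to 17.6), against 3.53%, 2.76% and 3.05% of other cells. Mki67 was then in 3.96% of KO (1.09 to 9.83), 5.84% of WT (2.55 to 11.2) and 7.36% of NCD cytokine cells (3.86 to 12.5), against 2.77%, 1.67% and 2.43%, and the KO interval includes the other cells' share.

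Genes of the type 1 program were lower. This program is the interferon-gamma side of T cell responses, driven by the transcription factor T-bet (Tbx21). Cxcr3, its chemokine receptor, was at 8.87 CPM in KO cytokine cells against 132 CPM in other KO cells (log2 ratio -3.79), 6.86 against 75.4 CPM in WT (-3.36) and 8.52 against 76.2 CPM in NCD (-3.10). Ifng itself had 0, 1 and 1 UMIs in KO, WT and NCD cytokine cells, and in KO was at least 14.4-fold below the 54.7 CPM of other cells, counted against 3 UMIs over all KO cytokine cells. Ccl5, a T cell chemokine, and Nkg7, a cytotoxic granule protein, were lower at log2 ratios of -3.24, -3.65 and -1.74 and of -2.26, -1.75 and -2.10. Of the list's genes at 50 CPM or more, 5 of 9 were 2-fold lower in KO, 3 of 7 in WT and 3 of 7 in NCD and none was higher. The shares of all genes 2-fold lower were 2.61%, 1.45% and 1.32%. The list's medians were -2.26, -0.96 and -0.83. Depth matching left these medians at -2.23, -0.63 and -0.88. Against ST2-bearing other cells, the log2 ratios of Cxcr3 were -2.45, -1.76 and -2.01 and those of Nkg7 -0.85, -0.60 and -0.94. In that comparison 4 of 9 genes of the list in KO, 2 of 7 in WT and 1 of 7 in NCD were 2-fold lower, and no share over all genes is given for it.

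Genes of resting, recirculating T cells were lower as well. S1pr1, the receptor by which T cells leave lymphoid tissue, was at 15.2 CPM in KO cytokine cells against 98.9 CPM in other cells (log2 ratio -2.64), 18.6 against 67.8 CPM in WT (-1.83) and 18.6 against 72.2 CPM in NCD (-1.93). Klf2, the factor that drives S1pr1 in T cells, had log2 ratios of -1.61, -1.08 and -1.18, and -0.81, -0.78 and -0.69 at matched depth. Of the list, 6 of 7 genes in KO, 3 of 5 in WT and 3 of 5 in NCD were 2-fold lower and none was higher, with medians of -1.79, -1.08 and -1.18. The shares of all genes 2-fold lower were 2.61%, 1.45% and 1.32%. At matched depth 3 of 7, 2 of 5 and 2 of 5 genes of the list were 2-fold lower, with medians of -0.95, -0.78 and -0.86. No share over all genes is given at matched depth. Klf3, Ly6c1, the surface molecules Ms4a4b and Ms4a6b, the survival gene Bcl2 and the kinase gene Prkcq completed the 12 farthest below, together with Hbb-bs. Hbb-bs encodes a beta globin of red cells. It had 5, 6 and 2 UMIs in KO, WT and NCD cytokine cells, against 57.6, 347 and 74.5 CPM in other cells, and its log2 ratio of -3.05 in KO was -0.86 without the highest cell of each set.

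**Figure D3:**
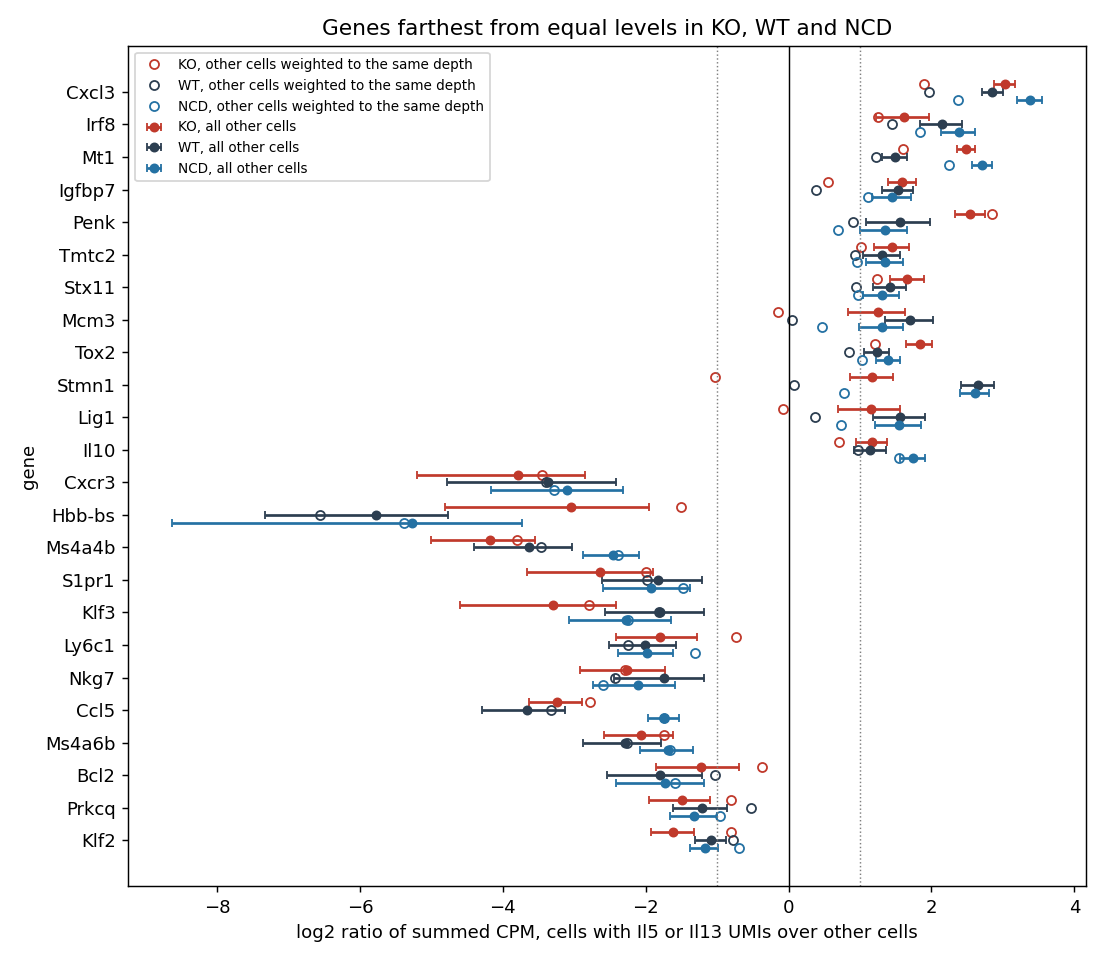
Log2 ratio of summed CPM in cytokine cells over other cells (horizontal axis) for the 12 genes farthest above and 12 farthest below, in KO (red), WT (black) and NCD (blue). Filled points compare with all other cells, with exact 95% intervals of counting error, and open points with other cells weighted to the cytokine cells' depth; dotted lines mark 2-fold. Cxcl3, Irf8 and Mt1 stay beyond 2-fold in both comparisons, and Mcm3, Stmn1 and Lig1 do not.

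Part of the program of ST2-bearing fat Treg cells was higher against all other cells. Of its list 4 of 16 genes in KO, 3 of 17 in WT and 1 of 17 in NCD were 2-fold higher. That compares with 2.53%, 1.79% and 2.1% of all genes. The list's medians were 0.65, 0.31 and 0.28, and 1 gene, in NCD, was 2-fold lower. Of the list, 12 of 16 genes measured in all 3 conditions lay above equal levels in each, as did 1043 of 3095 genes overall. Against other cells with an Il1rl1 UMI the 2-fold higher counts were 0 of 16 in KO, 0 of 17 in WT and 1 of 17 in NCD, with medians of 0.39, 0.10 and 0.11. At matched depth they were 0 of 16, 2 of 17 and 1 of 17, with medians of 0.64, 0.53 and 0.33. No share over all genes is given for either of these comparisons. Pparg, the nuclear receptor of fat Treg cells, was at 198 CPM in KO cytokine cells against 95.9 CPM in other cells (log2 ratio 1.05), 230 against 109 CPM in WT (1.09) and 111 against 68.7 CPM in NCD (0.70). Irf4, which acts with BATF in effector Treg cells, had 1.12, 1.14 and 0.78. Gata3 was close to equal, at 459 against 409 CPM in KO, 547 against 468 CPM in WT and 670 against 586 CPM in NCD. Areg, the tissue-repair factor amphiregulin, was likewise near equal at 3034 against 2428 CPM in KO, 2693 against 2559 CPM in WT and 3248 against 3322 CPM in NCD. Against other cells with an Il1rl1 UMI, Il1rl1 itself was near equal (0.14, -0.13 and -0.08), while Irf8 (1.93, 2.43 and 2.48) and Mt1 (2.33, 1.39 and 2.60) were not.

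Receptors of co-stimulation and inhibition did not move as groups. Of 9 co-stimulatory genes Tnfrsf9 was the 1 that was 2-fold higher in KO, WT and NCD. Icos, the inducible co-stimulator, was lower, at 77.3 CPM against 247 CPM in KO (log2 ratio -1.66), 102 against 204 CPM in WT (just under 2-fold) and 92.2 against 130 CPM in NCD (-0.49). Pdcd1, which encodes the inhibitory receptor PD-1, was higher at 699 against 325 CPM in KO (1.10), 501 against 291 CPM in WT (0.79) and 347 against 172 CPM in NCD (1.01). Of the antigen receptor early response list, 3 of 15 genes in KO, 2 of 15 in WT and 2 of 14 in NCD were 2-fold higher and 1, in KO, 2-fold lower. The shares of all genes 2-fold higher were 2.53%, 1.79% and 2.1%, and 2.61% were 2-fold lower in KO. The list's medians were 0.40, 0.24 and 0.29. Nr4a1, induced within minutes of antigen receptor signalling, was at 2427 against 1836 CPM in KO, 2181 against 1828 CPM in WT and 1832 against 1634 CPM in NCD. None of 20, 19 and 17 genes of the NF-kB list and none of 11 glycolysis genes were 2-fold apart, and heat shock and dissociation genes had medians of -0.10, -0.22 and -0.19, with 1 of 14 lower in KO. Plin2, which coats lipid droplets, was higher without reaching 2-fold, at log2 ratios of 0.93, 0.74 and 0.68.

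Split by cytokine UMIs, which the selection used, several of these genes had their highest summed level in the cells with most; this is a description of few cells, since intervals over summed UMIs leave out the spread between cells. Il10 was at 189 CPM, 237 CPM and 395 CPM in KO cells with 1, with 2 to 4 and with 5 or more cytokine UMIs, at 128, 280 and 333 CPM in WT and at 189, 238 and 472 CPM in NCD, each above the level in cells without a cytokine UMI. Irf8 was at 47.2, 96.3 and 192 CPM in KO, 43.2, 84.0 and 513 CPM in WT, and 110, 72.2 and 532 CPM in NCD. Tnfrsf9 was at 324, 244 and 720 CPM in KO and 152, 322 and 769 CPM in WT, but at 194, 229 and 242 CPM in NCD. Penk was at 923 CPM (790 to 1071) in the 20 KO cells with 5 or more cytokine UMIs, 76.9 CPM (39.7 to 134) in the 19 such WT cells and 200 CPM (137 to 280) in the 19 NCD cells. Cells with a single cytokine UMI also held more Mt1 than cells without, at 558 against 138 CPM in KO, 159 against 114 CPM in WT and 399 against 65.2 CPM in NCD.

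**Figure D4:**
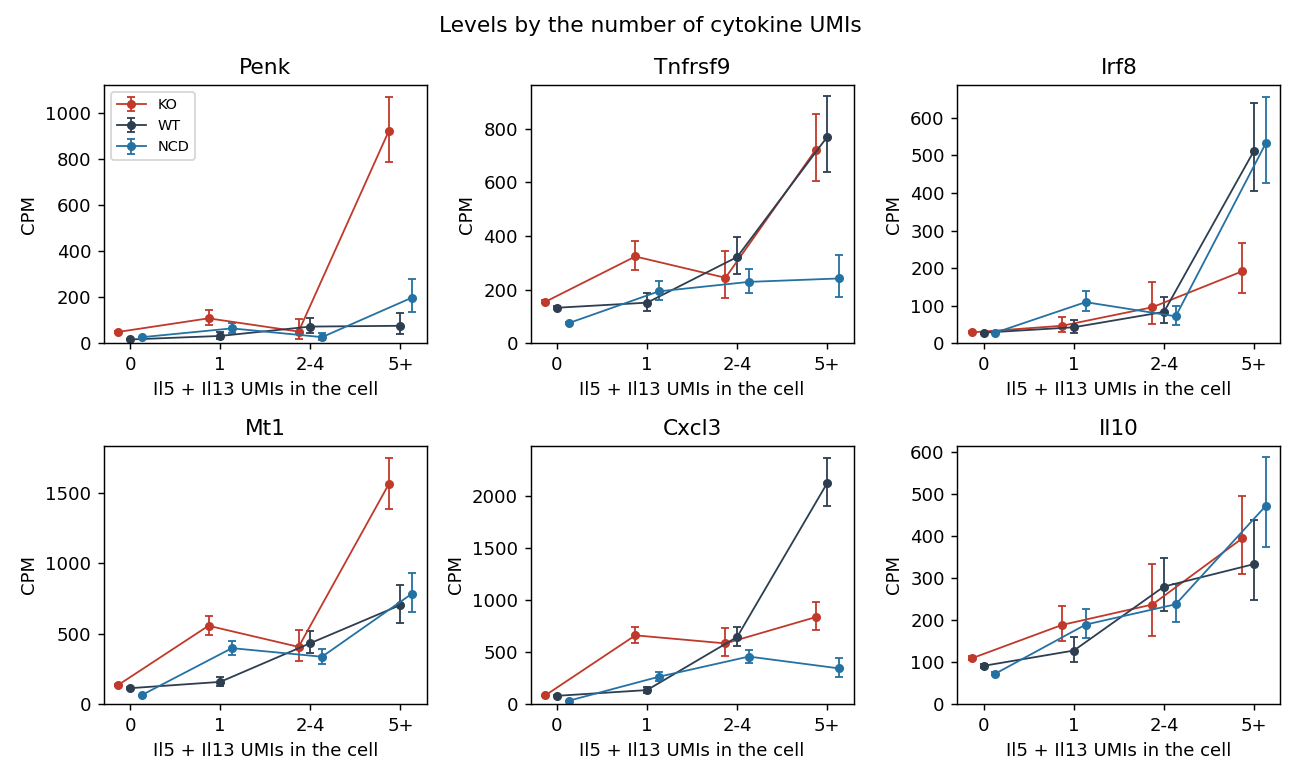
Summed level (vertical axis, CPM, from 0) of 6 genes in cells with 0, 1, 2 to 4 and 5 or more Il5 and Il13 UMIs (horizontal axis), in KO (red), WT (black) and NCD (blue), with exact 95% Poisson intervals. Il10 is highest at 5 or more cytokine UMIs in all 3 conditions, Irf8 reaches 513 CPM in WT and 532 CPM in NCD, and the Penk peak of 923 CPM in KO includes the cell with 120 of 231 UMIs.

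The summed levels of Irf8 and Il10 in cells with Il13 alone and with Il5 alone are given as a description, with the genes chosen after their values were seen. Il10 stood at 497 CPM (389 to 626) in the 22 KO cells with Il13 alone and at 214 CPM (177 to 257) in the 72 with Il5 alone. In WT it was at 331 CPM (252 to 428) in 31 cells with Il13 alone and 163 CPM (135 to 196) in 95 with Il5 alone, and in NCD at 379 CPM (313 to 455) in 37 cells and 188 CPM (161 to 218) in 118 cells. Irf8 likewise was at 145 CPM against 39.1 CPM in KO, 180 against 42.9 CPM in WT, and 212 against 119 CPM in NCD, in cells with Il13 alone and with Il5 alone. In the cells with both cytokines Irf8 was at 271 CPM in KO (10 cells), 545 CPM in WT (14 cells) and 294 CPM in NCD (8 cells).

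Cytokine cells carried varied antigen receptors. A variable segment of both chains was found in 87 KO, 95 WT, 11 HFD and 134 NCD cytokine cells, in 37, 51, 10 and 50 different pairings of alpha and beta segment. The most frequent pairing was Trav7-3 with Trbv5 in KO (19 of 87, 21.8%, against 8.0% of other KO cells), Trav1 with Trbv20 in WT (9 of 95, 9.47%, against 5.36%) and Trav7-5 with Trbv31 in NCD (13 of 134, 9.70%, against 7.01%). In each of these 3 conditions that pairing was also the most frequent among the other cells. Trav8n-2 with Trbv31 was as frequent as the leading pairing in NCD cytokine cells. Segments come from expression counts, near-identical alpha segments cannot be told apart with certainty, and a shared pairing is not a shared receptor sequence.

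The comparison of KO with WT within cytokine cells asked how the loss of SREBP2, the driver of cholesterol synthesis, bears on them. Srebf2 had 0 UMIs in the 104 KO cytokine cells and 61 UMIs in the 140 WT cytokine cells (59.7 CPM), at least 15.7-fold lower in KO when counted against 3 UMIs over all KO cytokine cells. In the other cells Srebf2 stood at 4.15 CPM in KO and 66.1 CPM in WT. Of 3455 genes, 40 were 2-fold higher in KO cytokine cells (1.16%) and 35 lower (1.01%). Only 3 genes of cholesterol synthesis reached 50 CPM, of which 1 was 2-fold lower, so the pathway could not be described at this depth. Il5 stood at 332 CPM in KO cytokine cells and 244 CPM in WT, and Il13 at 203 CPM in KO and 256 CPM in WT, levels set in part by the rule. Of 5 type 1 program genes 2 were 2-fold higher in KO cytokine cells (median 0.39). These include Ccl5, which was below 2-fold without the top cell of each condition. Of 15 genes of the ST2-bearing Treg program none was 2-fold apart (median -0.04).

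Genes highest in KO relative to WT often rested on 1 cell. Cxcl1, a neutrophil chemokine, had 107 UMIs in 6 KO cells and 2 in 1 WT cell (log2 ratio 5.80, 4.23 to 9.18), and 57 of the 107 were in 1 cell. Plagl1, an imprinted zinc finger gene, had 47 UMIs in 5 KO cells, 33 of them in 1, and 1 UMI in WT (5.36, 3.38 to 11.26). Penk was higher in KO (2.51, 2.08 to 2.99) and at 1.83 without the top cell of each condition, and it was also higher in KO among other cells (1.52). Ccl5 (1.61) was at 0.55 without the top cells. Dusp14, a phosphatase gene, had 85 UMIs in 23 KO cells and 23 in 9 WT cells (2.24, 1.58 to 2.99) and was at 2.77 without the top cells, against 0.67 in other cells. Popdc3 (1.80), Mpp7 (1.504) and Calca, the gene of calcitonin gene-related peptide (1.46), were higher in KO too, with 0.52, 0.34 and 0.06 in other cells.

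Genes of cell division were among the 8 lowest in KO relative to WT cytokine cells. The histone genes Hist1h2ap, Hist1h1b and Hist1h2ae had 5, 5 and 6 UMIs in KO against 223, 82 and 71 in WT (log2 ratios -4.97, -3.53 and -3.09). Top2a, the topoisomerase of dividing cells, had 7 against 76 UMIs (-2.98), Birc5, which encodes survivin, 6 against 60 (-2.85) and Pclaf, a partner of the replication clamp, 8 against 77 (-2.82). These UMIs lay in few cells, with Hist1h2ap in 5 KO and 15 WT cells and Top2a in 5 KO and 14 WT cells. Of 10 proliferation genes, 3 were 2-fold lower in KO and none higher (median -0.76), beside 1.01% of all genes lower and 1.16% higher. In other cells Top2a (0.24) and Birc5 (0.83) lay slightly higher in KO. Stmn1 was detected in 22.1% of KO and 20.7% of WT cytokine cells. Apobec3, an antiviral deaminase gene, was lower in KO cytokine cells (-2.86) and by as much in other KO cells (-3.00).

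**Figure D5:**
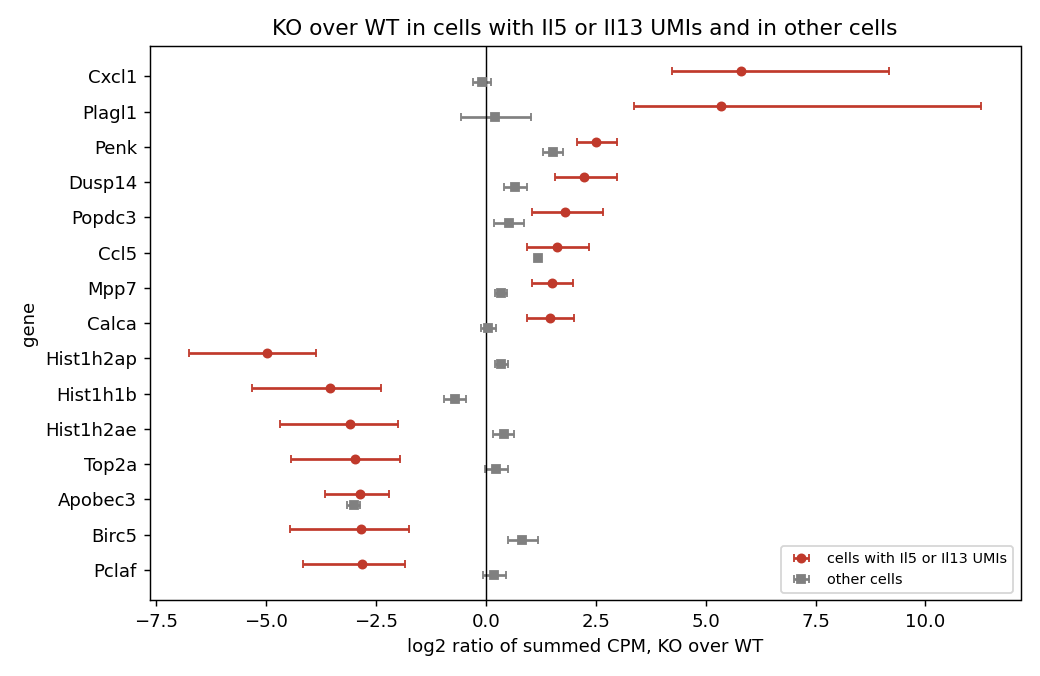
Log2 ratio of summed CPM in KO over WT (horizontal axis) within cytokine cells (red circles) and within other cells (grey squares), for the 8 genes farthest above and 7 of the 8 farthest below (Srebf2, at 0 UMIs in KO, is left out), with exact 95% intervals of counting error. Hist1h2ap, Top2a and Birc5 lie below 0 in cytokine cells and above 0 in other cells, and Apobec3 lies at -2.86 and -3.00.

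For HFD against NCD only counts can be given, because 18 HFD cells are few and their share of all cells could not be told from background. The HFD cells had 16 Il5 and 9 Il13 UMIs, against 387 and 226 UMIs in the 163 NCD cells. They resembled cytokine cells of the other conditions in part, with an Il1rl1 UMI in 61.1% against 17.4% of other HFD cells, Tnfrsf9 in 66.7% against 26.7%, Mt1 in 44.4% against 3.6% and Klrg1 in 72.2% against 15.4%. Cxcl3 was in 2 of the 18 (11.1%) against 28.8% of NCD cytokine cells. In this pool, fewer cells making the cytokines and less RNA in each such cell cannot be told apart from these counts alone.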

How the data were processed

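Single-cell RNA from 2 pools was analysed. The authors deposited 1 matrix of raw UMI counts per pool, with hashtag counts as further rows, per the file headers. Headers name Cell Ranger 7.1.0 (Srebf2 pool) and 7.0.1 (diet pool); the submitters' processing notes name 7.0.1 and mm10. No annotation release is named there.

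Counts were summed over cells in Python 3.11.15 (numpy 2.4.6, scipy 1.17.1, pandas 2.3.3) and divided by the summed total as CPM. Log2 ratios add 0.5 counts to each sum. Barcodes with both hashtags were removed as doublets; same-condition doublets stay, and no doublet caller was run. B cell-like barcodes passed the gene, mitochondrial and hashtag filters and had 2 or more Cd79a UMIs and no Cd3e or Foxp3 UMI. Named genes were the 12 highest and 12 lowest by the smallest log2 ratio over KO, WT and NCD (8 each for KO against WT), at 50 CPM and at least 10 UMIs in the higher set, without receptor, immunoglobulin, mitochondrial, ribosomal, Gm and Rik genes, plus fixed genes and gene list members. Cells, genes and gene lists were chosen with earlier results of these data known. Depth-matched ratios weight other cells over 10 depth bins. The ratio code was tested on simulated data. Alternatives changed the cytokine minimum, cell filters, depth, comparison cells, scaling, added counts and minimum level.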

Additional observations from a re-analysis of the deposited data

Results flagged for a closer look

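Cytokine UMIs were also found in barcodes that the filters left out. Of 1427 barcodes with both hashtags, 55 had an Il5 or Il13 UMI (3.85%). Of 1215 barcodes with a Cd79a, Lyz2 or Cd8a UMI, 19 had one (1.56%). Both sets can hold sorted Treg cells, so no level above a background is claimed, and the cells kept had shares of 2.63% in KO, 4.01% in WT, 0.399% in HFD and 3.30% in NCD.

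Cxcl1 and 3 histone genes went in opposite directions in KO and WT, each with 1 sample per condition, so that the difference was not tested. The log2 ratio of cytokine cells over other cells was 2.28 for Cxcl1 in KO, against -3.61 in WT and -3.28 in NCD. It was -1.12 for Hist1h1b in KO, against 1.72 in WT and 2.53 in NCD. For Hist1h2ae it was -1.62 in KO, against 1.87 in WT and 2.51 in NCD. For Hist1h2ap it was -3.03 in KO, against 2.30 in WT and 2.68 in NCD. Against other cells weighted to the same depth the histone genes lay below 0 in both KO and WT, at -3.66 and -1.34 for Hist1h1b, -3.99 and -1.08 for Hist1h2ae, and -5.42 and -0.72 for Hist1h2ap, so that for them the opposition was lost. Cxcl1 was then at 1.93 in KO and -3.64 in WT.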

How the results depend on the processing

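The shares, the counts of genes past 2-fold and the named genes stayed within their limits when a T cell gene was required, at a hashtag share of 95%, at 1000 genes per cell, at under 5% mitochondrial counts, without mitochondrial and ribosomal genes in the total, and with 2 counts added. Of the 425 cytokine cells 424 already had a T cell gene. Their highest mitochondrial share was 5.02% in the Srebf2 pool and 2.83% in the diet pool. Both of these settings thus left nearly the same cytokine cells and are a weak check. The settings not listed above moved some of these values, given here, and the cause was not tested. With 2 or more cytokine UMIs the shares were 0.961% in KO, 1.52% in WT, 0.0887% in HFD and 1.40% in NCD. Cd3e was then in 100% of KO cells, and Cd4 in 71.7% of WT and 75.0% of HFD cells. Genes higher and lower than in other cells were 134 and 168 in KO, 169 and 172 in WT, and 175 and 105 in NCD, and KO against WT gave 114 higher and 139 lower. Requiring a Foxp3 UMI gave shares of 5.06% in WT and 4.11% in NCD, Cd3e in 100% of HFD and Cd4 in 72.5% of NCD cells; the Foxp3 share itself is then fixed and not given.

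Thinning to 2000 UMIs and choosing cytokine cells again gave shares of 1.40% in KO, 1.89% in WT, 0.132% in HFD and 1.55% in NCD. Foxp3 was then in 27.5% of KO, 33.3% of WT and 23.6% of NCD cytokine cells, Cd3e in 80.4% of KO, 68.3% of WT, 100% of HFD and 84.7% of NCD, and Cd4 in 49.0% of KO, 26.7% of WT and 31.9% of NCD. Genes higher and lower were 278 and 290 in KO, 319 and 168 in WT, and 148 and 154 in NCD, and KO against WT gave 379 higher and 512 lower. The smallest log2 ratio of Lig1 over the 3 conditions turned to -2.72. Against other cells with an Il1rl1 UMI, 52 genes were higher and 55 lower in KO, and 27 were lower in NCD. Against other cells weighted to the same depth, 54 were higher and 61 lower in KO, 25 higher and 31 lower in WT, and 23 higher in NCD, and the smallest ratios of Mcm3, Stmn1 and Lig1 turned to -0.16, -1.03 and -0.082. With no minimum level, 5722 were higher and 1459 lower in KO, 4551 and 1228 in WT, and 5274 and 1108 in NCD, and KO against WT gave 1742 higher and 2158 lower. Leaving out each gene's top cell, an alternative chosen after seeing the data, gave 50 genes higher in KO, 37 higher and 79 lower in WT, and 43 higher in NCD.

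Of 481 values of named genes under these alternatives, 439 stayed 2-fold or more, 38 were below 2-fold in the same direction, and 4 reversed, those given above. These include values with no minimum level, a setting that cannot change a gene's ratio, and values from settings that changed few cytokine cells. The total is therefore no measure of how firm the ratios are. By whether a value stayed within the counting interval of its reported value, 8 of 24 named genes held at matched depth and 12 of 33 after thinning. No value is given where both groups had 3 UMIs or fewer. No paired analysis was possible because each condition is 1 pool of mice. With 1 sample per condition, differences between mice, hashtags and conditions cannot be told apart. The HFD cells set the narrowest limit, with 18 cells and 103813 UMIs.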
